A study of Mus musculus with 12 samples.

Results

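Cholesterol synthesis and its control by the transcription factor SREBP2 were examined through 8 genes, Srebf2, Insig1, Hmgcs1, Idi1, Fdps, Sqle, Lss and Dhcr7, out of 21959 gene IDs in the count table. The genes were listed by symbol, and all 8 had 1 gene ID each. Reads were counted in cardiac ventricles of 6 wild-type (WT) mice and 6 Vps13c-cKO mice, labelled as a cardiac-specific knockout of Vps13c, which encodes a lipid transfer protein of organelle contact sites. All 12 were males of 7 weeks on a chow diet. The mice came from a commercial breeder, and the labels name neither the promoter that drives the deletion, nor the deleted exons, nor any transgene in the WT mice. Each library came from 1 mouse of 1 group and no batch is named, so p-values measure the spread between these mice.

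As background, cells make cholesterol from acetyl-CoA through the mevalonate pathway. Hmgcs1 encodes the cytosolic HMG-CoA synthase, an early enzyme of the pathway, Idi1 the isopentenyl diphosphate isomerase, Fdps the farnesyl diphosphate synthase, Sqle the epoxidase that commits squalene to sterols, Lss the cyclase that makes lanosterol, and Dhcr7 the reductase of the last step to cholesterol. Srebf2 encodes SREBP2, a membrane-bound precursor that leaves the endoplasmic reticulum with its escort Scap when sterols are low, is cut in the Golgi and then activates the genes of the pathway. Insig1 and Insig2 encode proteins that hold the Scap and SREBP complex back when sterols are high, and Insig1 is itself a classic SREBP target. Synthesis is far more active in liver than in heart.

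The libraries held 12484523 to 15562942 counts. Levels were expressed as CPM, read counts scaled to each library's size after TMM correction, and groups were compared with edgeR's quasi-likelihood test, a gene being called at a Benjamini-Hochberg adjusted p under 0.05 over all 12384 tested genes. Values are mean ± SD over 6 mice a group, log2 fold changes are for Vps13c-cKO over WT with their standard error, and intervals cover 95%. Vps13c was at 54.6 to 68.6 CPM in WT and at 16.3 to 20.3 CPM in Vps13c-cKO mice, and so fell by 1.77 ± 0.06 on the log2 scale (adjusted p = 4.469e-14). Cardiomyocyte markers were abundant in every library, with a summed level of 46670 to 52820 CPM. A pair of libraries stood apart. Vps13c-cKO mouse 1 held 3016 counts of Alb, the liver's serum albumin, against 0 to 11 in the others. WT mouse 4 held the atrial light chain gene Myl4 at 31.3 CPM against at most 2.19. The atrial markers Myl7 and Sln had 405 and 114 counts in WT mouse 4, against at most 5 and 1 elsewhere. Of the other atrial markers listed, Bmp10 had 0 counts in WT mouse 4. Nppa was highest there among WT mice, at 7.95 CPM, but lower than the 12.5 to 27.3 CPM of Vps13c-cKO mice. Liver expresses the pathway strongly, so results below are also given without these mice, an alternative chosen after the data were seen. Without both, 1137 of 12397 genes were called (9.17%).

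The upstream sequences of 3 of the genes are shown as examples. Just before the annotated start, those of Hmgcs1 and Srebf2 carry a match to the sterol element through which SREBP proteins are known to bind. The match in Srebf2 has 1 mismatch. That of Insig1 carries no match to a sterol element, and an E-box instead. Of the 8 genes, 6 matched RefSeq promoter windows (build GRCm38.p6), and each sequence runs 5′ to 3′ over the 250 bases before the start. Capitals mark matches to 3 motifs searched on both strands: the sterol regulatory element consensus TCACNCCAC, the classic element SRE-1 with at most 1 mismatch, which overlaps the consensus, and the E-box CACGTG, which reads the same on both strands.
Hmgcs1, chr13:119690101-119690350, plus strand: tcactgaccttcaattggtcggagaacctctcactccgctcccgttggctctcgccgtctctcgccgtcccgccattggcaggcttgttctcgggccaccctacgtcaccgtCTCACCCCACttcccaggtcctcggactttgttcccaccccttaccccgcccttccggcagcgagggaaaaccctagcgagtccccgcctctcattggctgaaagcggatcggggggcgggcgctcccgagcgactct
Insig1, chr5:28071162-28071411, plus strand: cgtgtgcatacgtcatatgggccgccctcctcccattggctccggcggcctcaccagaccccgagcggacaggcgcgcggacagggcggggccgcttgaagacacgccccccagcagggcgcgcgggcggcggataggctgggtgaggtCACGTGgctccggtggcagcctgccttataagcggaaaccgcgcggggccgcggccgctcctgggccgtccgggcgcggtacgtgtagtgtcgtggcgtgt
Srebf2, chr15:82147019-82147268, plus strand: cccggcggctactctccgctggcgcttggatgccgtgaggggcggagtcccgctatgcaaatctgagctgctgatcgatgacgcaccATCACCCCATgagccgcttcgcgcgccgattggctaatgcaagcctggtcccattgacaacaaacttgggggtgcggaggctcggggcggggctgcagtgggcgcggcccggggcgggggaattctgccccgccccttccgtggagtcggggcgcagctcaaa

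In the Hmgcs1 window, the consensus element began 137 bases before the start. In the Srebf2 window, the match to SRE-1 with 1 mismatch, ATCACCCCAT, began 163 bases before the start. The Insig1 window held an E-box 101 bases before the start and no match to either sterol element within these letters. Of 32851 RefSeq windows of the same length, 1.05% held the consensus, 1.65% SRE-1 with at most 1 mismatch and 6.02% the E-box. CCAAT boxes and GC boxes (GGGCGG), counted on both strands and known as usual partners of sterol elements, were present in all 3 windows, but they are common, in 33.8% and 32.7% of all windows. The single windows of Idi1 and Lss had CCAAT and GC boxes and none of the 3 motifs. Of the windows of Dhcr7, 1, not shown, also held an E-box, 164 bases before the start. These matches describe letters, and binding was not measured.

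Insig1 was higher in the Vps13c-cKO ventricles, and none of the enzyme genes was called. Of the 8 genes, 7 had enough counts to be tested, 1 was called higher and 0 lower, against 10.7% of all tested genes called in either direction and 5.65% called higher. At an unadjusted p under 0.05, edgeR put 3 of the 7 genes past the threshold, Insig1, Sqle and Hmgcs1, the last of them lower, against 23.8% of all tested genes. Neither DESeq2 nor limma-voom called a gene other than Insig1. Log2 fold changes ran from -0.12 to 0.38, 6 of 7 were positive, and their median was 0.06 against 2.755e-05 over all tested genes.

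**Figure D1:**
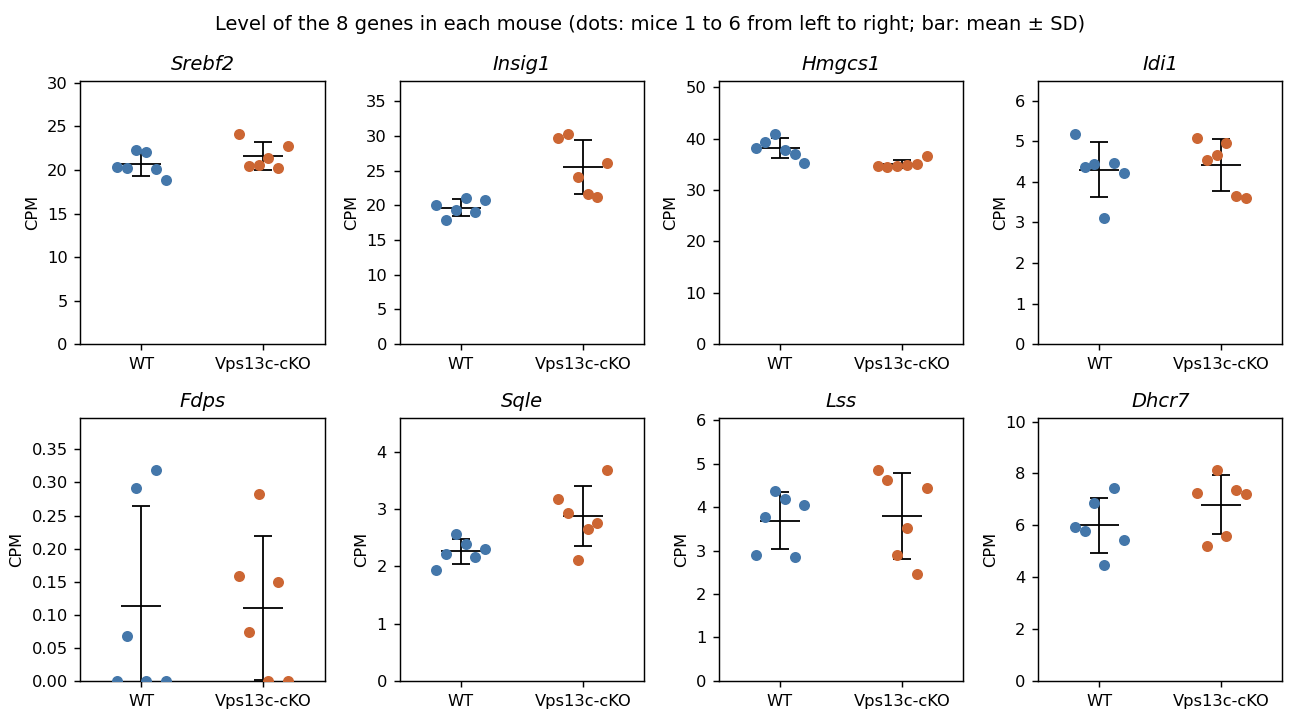
CPM (vertical axes, each from 0) of the 8 genes in the 6 WT and 6 Vps13c-cKO mice; dots are mice and bars mean ± SD. The 6 Vps13c-cKO mice lay above every WT mouse for Insig1, by a small margin at the lowest, whereas the groups overlapped for the other 7 genes.

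The regulators were Srebf2 on chromosome 15 and Insig1 on chromosome 5. Insig1 was at 20.02, 17.8, 19.3, 21.1, 19.0 and 20.8 CPM in WT mice 1 to 6 and at 29.6, 30.3, 24.1, 21.7, 21.2 and 26.1 CPM in Vps13c-cKO mice 1 to 6. The groups did not overlap, although the lowest Vps13c-cKO mouse, mouse 5 at 21.16 CPM, was barely above the highest WT mouse at 21.10 CPM. Among all tested genes, 4.93% had groups that did not overlap 2.75% with all Vps13c-cKO mice higher and 2.18% with all of them lower. The means were 19.7 ± 1.20 and 25.5 ± 3.90 CPM, a log2 fold change of 0.38 ± 0.08 (interval 0.20 to 0.55, or 1.30-fold, adjusted p = 0.0045). The rise was uneven, with Vps13c-cKO mice 1 and 2 near 30 CPM and mice 4 and 5 just above the WT range. Without Vps13c-cKO mouse 1 and WT mouse 4, Insig1 was still called, at 0.35 ± 0.09 (adjusted p = 0.0149). Reads were counted in whole tissue, so more RNA per cell and more cells of a type that expresses the gene cannot be told apart.

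No change of Srebf2 itself was detectable. Its values were 20.4, 20.2, 22.3, 22.1, 20.1 and 18.9 CPM in WT mice and 24.2, 20.4, 20.6, 21.4, 20.2 and 22.7 CPM in Vps13c-cKO mice. The ranges overlapped over most of their width, with Vps13c-cKO mice 1 and 6 alone above the WT range. The log2 fold change was 0.06 ± 0.06, with an interval of -0.07 to 0.19 (adjusted p = 0.609).

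Of the early enzymes, Hmgcs1 on chromosome 13 leaned the other way from Insig1. It was at 38.3, 39.3, 40.9, 37.9, 37.0 and 35.3 CPM in WT mice and at 34.7, 34.4, 34.7, 34.8, 35.1 and 36.6 CPM in Vps13c-cKO mice. In the Vps13c-cKO group, 5 of 6 mice were below the lowest WT mouse, and only mouse 6 reached into the WT range. The means of 38.1 ± 1.94 and 35.0 ± 0.790 CPM gave a log2 fold change of -0.12 ± 0.05 (interval -0.22 to -0.03), which did not pass the adjustment (adjusted p = 0.0969). The adjusted p stayed between 0.0504 and 0.202 under every other setting tried, so Hmgcs1 was never called. Idi1, also on chromosome 13, was at 5.19, 4.38, 4.45, 3.11, 4.46 and 4.22 CPM in WT mice and at 5.09, 4.55, 4.66, 4.96, 3.65 and 3.60 CPM in Vps13c-cKO mice. The Vps13c-cKO mice all lay within the WT range. The log2 fold change of Idi1, 0.04 ± 0.13, had an interval of -0.24 to 0.31 (adjusted p = 0.913). A change within that interval, in either direction, cannot be told from none. Idi1 had 43 to 70 counts a mouse.

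Fdps on chromosome 3 could not be measured. It had 0, 1, 4, 0, 5 and 0 counts in WT mice and 2, 1, 4, 0, 2 and 0 counts in Vps13c-cKO mice, and was removed by the filter on low counts. In the GENCODE M21 annotation (build GRCm38), exons of a readthrough gene on the same strand, Gm43738, cover 85.9% of the coding bases of Fdps and 26.7% of its exon bases. Gm43738 had 1 count in all 12 libraries. The sources used here do not say how reads in exons shared by 2 genes were counted, so the low count is no measure of the level of Fdps RNA.

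The sterol-specific enzymes Sqle (chromosome 15), Lss (chromosome 10) and Dhcr7 (chromosome 7) were at low levels and none was called. Sqle was at 1.93, 2.22, 2.55, 2.38, 2.16 and 2.30 CPM in WT mice and at 3.18, 2.94, 2.12, 2.64, 2.76 and 3.67 CPM in Vps13c-cKO mice. All Vps13c-cKO mice but mouse 3 were above the highest WT mouse, and mouse 3 was inside the WT range. The log2 fold change of 0.35 ± 0.15 was nearly that of Insig1, but its interval of 0.03 to 0.67 was wider, and it did not pass the adjustment (adjusted p = 0.163). Sqle had 26 to 35 counts a mouse in WT and 30 to 52 in Vps13c-cKO ventricles. Lss was at 2.89, 3.77, 4.38, 4.19, 2.86 and 4.06 CPM in WT mice and at 4.85, 4.62, 2.89, 3.52, 2.46 and 4.45 CPM in Vps13c-cKO mice. The Vps13c-cKO mice spread on both sides of the WT range, and the log2 fold change was 0.04 ± 0.17 (interval -0.31 to 0.40, adjusted p = 0.92). Dhcr7 was at 5.99 ± 1.05 CPM in WT and 6.79 ± 1.13 CPM in Vps13c-cKO mice, with overlapping ranges of 4.48 to 7.45 and 5.21 to 8.12 CPM. Its log2 fold change was 0.18 ± 0.13 (interval -0.09 to 0.45, adjusted p = 0.441). It was 0.11 without WT mouse 4, 0.12 without Vps13c-cKO mouse 3, and 0.09 ± 0.13 without the mice with liver and atrial markers. Without those mice the log2 fold changes of the others were -0.12 for Hmgcs1, 0.34 for Sqle, 0.05 for Srebf2, -0.08 for Idi1 and 0.004 for Lss, none of them called. In GENCODE M21, Hmgcs1, Idi1 and Lss each overlap a gene on the opposite strand (Gm48342, Gm48574 and 4930483K19Rik), none of them in the count table, and as the strand setting is not stated, reads of these genes could not be told apart.

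Set per length, the 7 tested genes spanned a wide range of levels. Mean CPM per kilobase of annotated exon in WT was 8.30 for Hmgcs1, 6.36 for Insig1, 2.88 for Srebf2, 1.23 for Idi1, 1.03 for Dhcr7, 0.407 for Sqle and 0.342 for Lss. The value for Fdps was 0.0268, but its low count is no measure of the level of its RNA. Hmgcs1 was above Insig1 in WT, where their mouse ranges of 7.67 to 8.91 and 5.77 to 6.82 did not meet, whereas in Vps13c-cKO mice Insig1 ranged from 6.84 to 9.80 around the 7.49 to 7.96 of Hmgcs1. Idi1 and Dhcr7 overlapped in both groups, and so did Sqle and Lss. Insig1 and Srebf2, Srebf2 and Idi1, and Dhcr7 and Sqle did not meet in either group. Hmgcs1 ranked 3465 of the 12384 tested genes and Lss 11632. Insig2, the other retention protein, was at 18.1 CPM per kilobase in WT, above both Insig1 and Hmgcs1 in every mouse. Exon lengths came from an annotation of another build than the counts, and the isoforms in use were not measured.

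**Figure D2:**
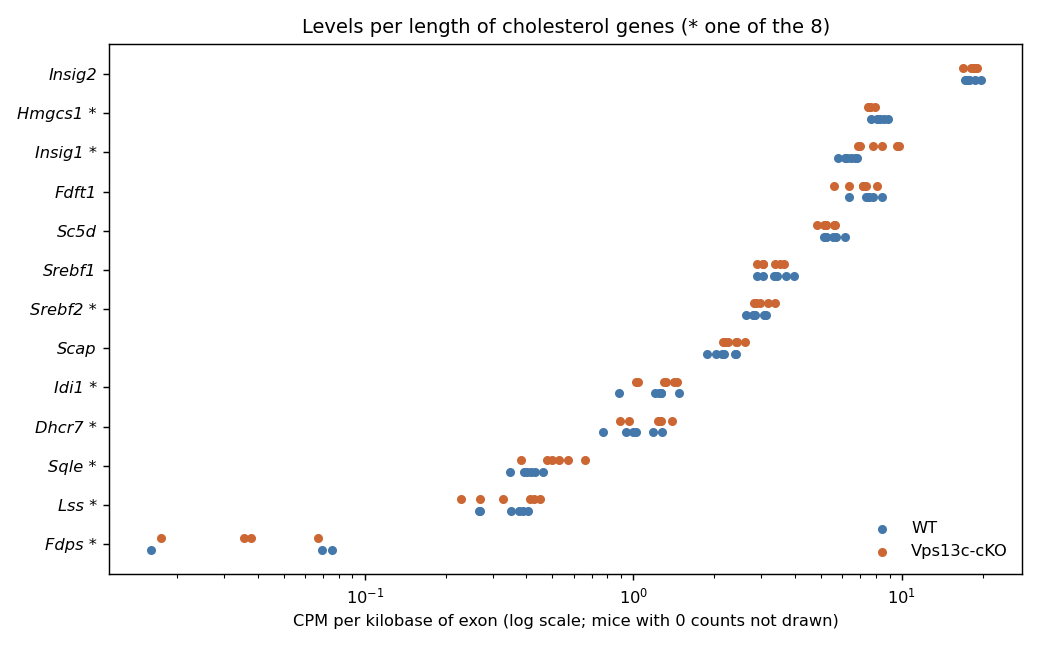
CPM per kilobase of exon (log axis) for the 8 genes, starred, and 5 related genes; each dot is a mouse, blue for WT and orange for Vps13c-cKO, and mice with 0 counts are not drawn. Genes are ordered by level, from Insig2 at 18.1 in WT down to Fdps at 0.0268, whose low count is no measure of its RNA level.

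Spread between mice also differed between the genes. The coefficient of variation within groups was 3.93% for Hmgcs1, lower than in all but 6.32% of tested genes, 6.85% for Srebf2 and 11.7% for Insig1, against a median of 9.19%. It reached 14.5% for Sqle, 15.1% for Idi1, 17.1% for Dhcr7 and 22.4% for Lss, the 4 tested genes with the fewest counts.

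The change of Insig1 was set directly against that of related genes, through the difference of the 2 genes' log2 CPM in each mouse. The prior count of 2 pulls in the values of low genes such as Sqle. The 7 comparisons were chosen after the data were seen, with Insig1 already known as the called gene. The adjustment covers the 7 comparisons but not that choice. Where the other gene hardly moved, a comparison repeats the Insig1 result and is no separate support for it. Relative to Hmgcs1, the Insig1 difference in log2 CPM was -0.95 ± 0.14 in WT and -0.47 ± 0.23 in Vps13c-cKO mice, 0.48 higher with all 6 Vps13c-cKO mice above all WT mice (exact permutation test, two-sided, p = 0.002165, the smallest this design can give; adjusted p = 0.0152 over the 7). Relative to Insig2, which was at 62.9 ± 3.19 and 63.8 ± 2.73 CPM, the difference was 0.34 (adjusted exact permutation p = 0.0202). Relative to Srebf2 it was 0.30 (adjusted exact permutation p = 0.0202), and 0.29 with an adjusted exact permutation p of 0.0556 without the mice with liver and atrial markers. The differences were 0.34 relative to Lss (adjusted exact permutation p = 0.0606) and 0.32 relative to Idi1 (adjusted exact permutation p = 0.097). The Idi1 comparison passed the threshold without the mice with liver and atrial markers, at 0.42 (adjusted exact permutation p = 0.037), and without WT mouse 4 alone or Vps13c-cKO mouse 4 alone, at 0.43 and 0.40 (adjusted exact permutation p = 0.0202 and 0.0485). The Lss comparison passed it without WT mouse 1, WT mouse 5 or Vps13c-cKO mouse 4 (adjusted exact permutation p = 0.0341, 0.0455 and 0.0485). Relative to Dhcr7 and Sqle the differences were 0.18 and 0.04 (adjusted exact permutation p = 0.444 and 0.745). The former was 0.0584 without Vps13c-cKO mouse 2, 0.108 without WT mouse 5 and 0.28 without WT mouse 4. Thus no difference between the responses of Insig1 and Sqle was detectable.

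Whether the 8 genes varied together from mouse to mouse within a group was examined on log2 CPM with group means subtracted. Over the 28 pairs and 12 mice, Pearson's r ranged from -0.421 to 0.737 with a median of 0.109, and 17 pairs were positive, while the median over all pairs of tested genes was -0.000505. By the exact permutation test within groups, 0 pairs passed an adjusted p of 0.05 and 3 did unadjusted, and Spearman's rho also gave 0 pairs after adjustment. Sqle and Lss, consecutive enzymes, had r = 0.719 and rho = 0.832 (exact permutation p = 0.0182 and 0.00428, adjusted 0.255 and 0.12). Without the 2 mice farthest from the median of Sqle r was 0.757, and it was 0.873 in WT and 0.673 in Vps13c-cKO mice. Without Vps13c-cKO mouse 5 this was the 1 pair past the adjusted threshold. Insig1 and Lss had r = 0.705 and rho = 0.797 (exact permutation p of r = 0.0353, adjusted 0.329), with r = 0.227 in WT, 0.857 in Vps13c-cKO mice and 0.525 without the 2 mice farthest from the median of Insig1. Fdps and Dhcr7 had r = 0.737 (exact permutation p = 0.0109, adjusted 0.255), which rests on the 0 to 5 counts of Fdps, and this pair passed without Vps13c-cKO mouse 6. Srebf2 had r of 0.55 with Hmgcs1, 0.56 with Sqle and 0.56 with Lss. None of these passed the threshold, adjusted or not (unadjusted exact permutation p = 0.0598, 0.0823 and 0.0835). Without the 2 mice farthest from the median of Hmgcs1, Sqle and Srebf2 in turn, they were 0.177, 0.564 and 0.346. With the other genes, Srebf2 had r of 0.34 for Insig1, 0.06 for Fdps, 0.06 for Dhcr7 and -0.08 for Idi1. Without the mice with liver and atrial markers the median r was 0.0227.

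**Figure D3:**
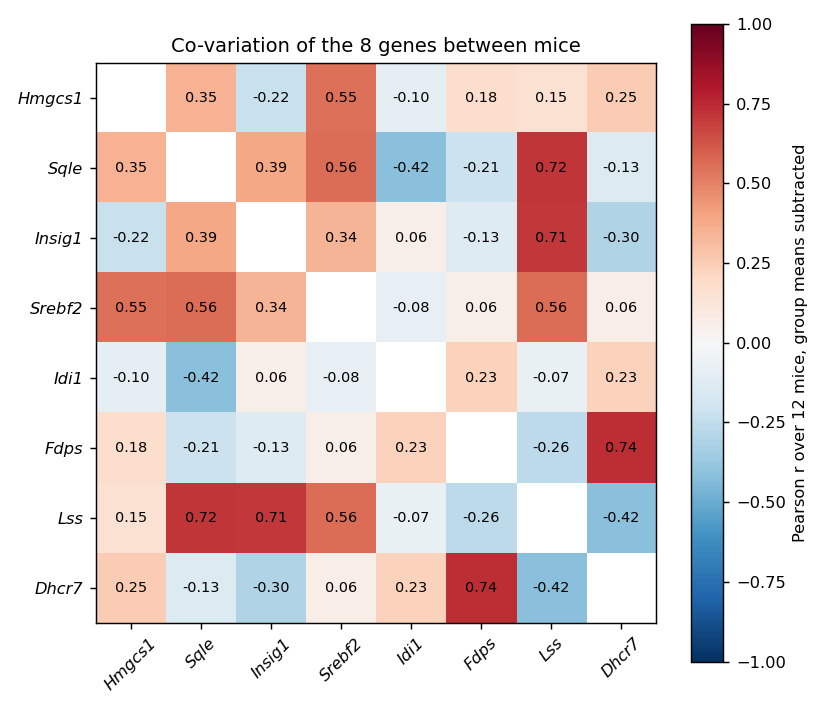
Pearson's r between the 8 genes over 12 mice, with group means subtracted from log2 CPM; red is positive and blue negative. The highest values are those of Fdps with Dhcr7 and of Lss with Sqle and Insig1, and none of the 28 pairs passed the adjusted threshold.

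The genes outside the pathway whose profile over the 12 mice was most like the mean scaled profile of the 8 genes were Gpatch8 (r = 0.909), Olfml2a (r = 0.887), Aatk (r = 0.881), Cep85l (r = 0.859) and Rasd2 (r = 0.856), the highest of 10908 genes ranked. The profile gives Fdps the same weight as the other genes, and without the 2 mice farthest from its median these values fell to between 0.529 for Rasd2 and 0.857 for Olfml2a. By the exact permutation test within groups, p was 0.000152 to 0.00162, not adjusted for the 10908 genes searched. The 8 genes averaged in the profile had a median pairwise r of 0.109. Whether these 5 genes follow the pathway was not tested.

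The rest of the pathway was followed in 5 lists of 65 genes, of which 60 were tested. Of these, 3 were called higher and 3 lower, 34 log2 fold changes were positive, and the median was 0.02. The 6 called of 60 are about the share of all tested genes called, 10.7%. Of all 12384 genes, 5.65% were called higher and 5.1% lower. Without the mice with liver and atrial markers, 5 of the 6, all but Gramd1b, were still called.

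**Figure D4:**
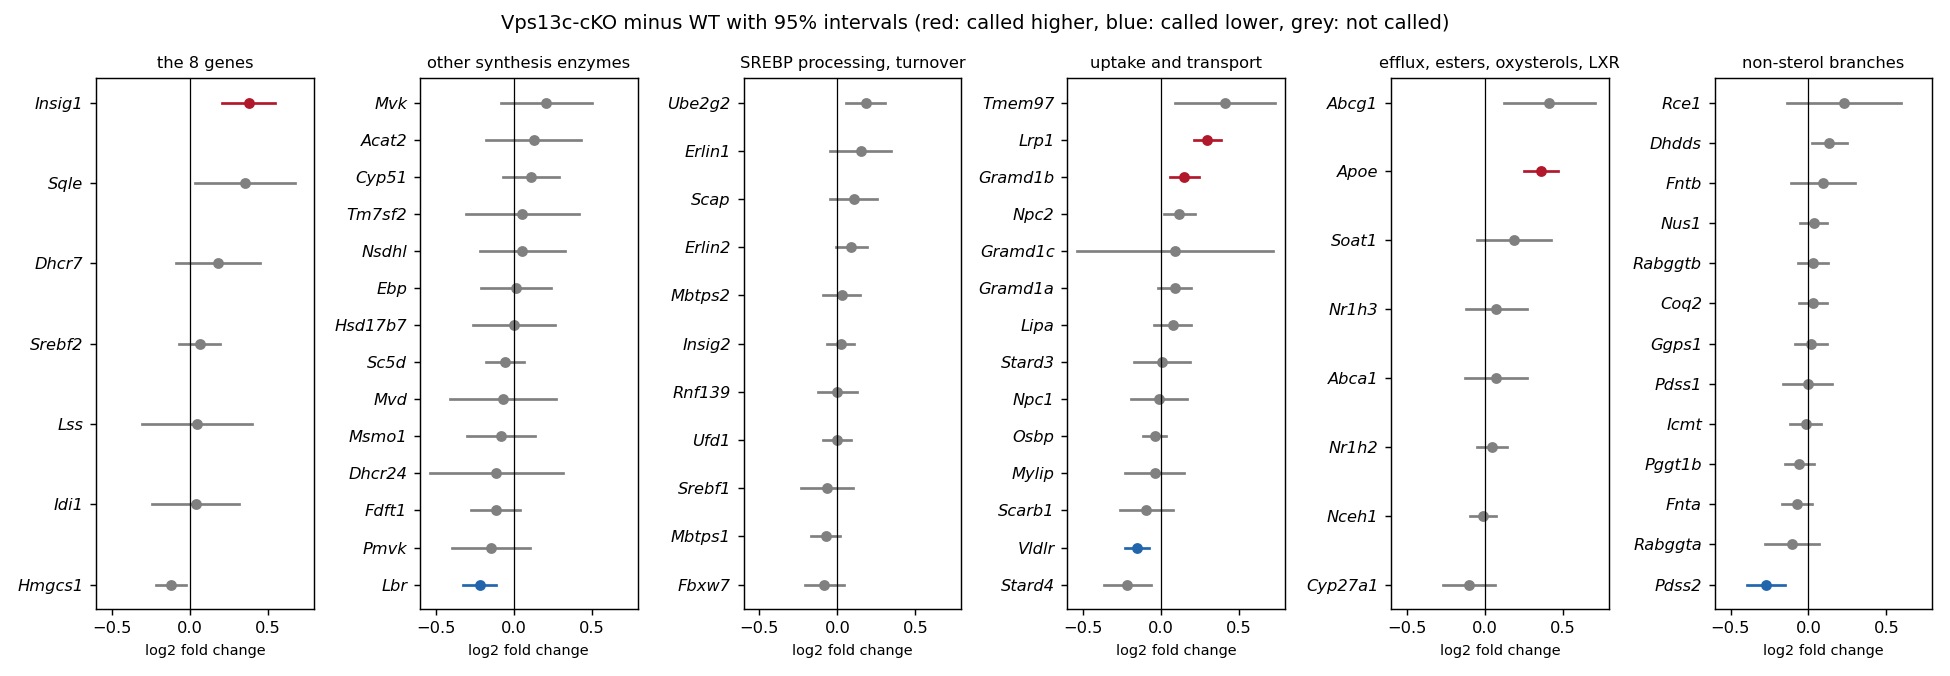
Log2 fold change, Vps13c-cKO minus WT, with 95% intervals (horizontal axes) for the tested genes among the 8 and in the 5 other lists. Red marks genes called higher (Insig1, Lrp1, Gramd1b, Apoe), blue those called lower (Lbr, Vldlr, Pdss2), and most genes of each list lie near 0.

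Among 14 other synthesis enzymes, 0 were called higher and 1 was called lower, by edgeR as by DESeq2 and limma-voom. By edgeR, 1 of the 14, Lbr, had an unadjusted p under 0.05, against the 23.8% of all tested genes. Lbr, a lamin B receptor that also has sterol reductase activity, fell by 0.22 ± 0.05 on the log2 scale, from 27.2 to 30.2 CPM in WT to 23.4 to 26.3 CPM in Vps13c-cKO mice, with no overlap (adjusted p = 0.00615). Its exons overlap Dnah14 on the opposite strand in GENCODE M21, and strand was not stated for the counts. Mvk, the mevalonate kinase, was at 0.21 ± 0.14 and Fdft1, the squalene synthase just before Sqle, at -0.12 ± 0.08 on the log2 scale (adjusted p = 0.402 and 0.391). Exons of Fdft1 overlap Ctsb on the opposite strand, which leaves its value uncertain to that extent. Cyp51, the lanosterol demethylase that follows Lss, was at 0.11 ± 0.09 (adjusted p = 0.481).

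Of 11 genes of SREBP processing and protein turnover in the endoplasmic reticulum, 0 were called in either direction by edgeR, DESeq2 or limma-voom without sample weights, and 1, Ube2g2, had an unadjusted p under 0.05, again beside 23.8% of all tested genes. This ubiquitin-conjugating enzyme gene was just outside the threshold at 0.18 ± 0.06 (adjusted p = 0.0589). It was called without the mice with liver and atrial markers, at 0.23 ± 0.06 (adjusted p = 0.0178), and without WT mouse 4 alone (adjusted p = 0.0115). The paired membrane proteins Erlin1 and Erlin2 were at 0.15 ± 0.09 and 0.09 ± 0.05 (adjusted p = 0.361 and 0.266), and Mbtps1, a protease that cuts SREBP proteins in the Golgi, at -0.08 ± 0.04 (adjusted p = 0.313). The log2 fold change was 0.02 ± 0.04 for Insig2 (adjusted p = 0.832) and -0.07 ± 0.08 for Srebf1, which encodes SREBP1 (adjusted p = 0.685).

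In cholesterol uptake and transport, 2 of 14 tested genes were called higher and 1 lower, and 6 of 14 had an unadjusted p under 0.05. Over all tested genes, edgeR called 10.7% in either direction and gave 23.8% an unadjusted p under 0.05. Lrp1, a large endocytic receptor that binds apolipoprotein E particles, was at 129 to 146 CPM in WT and 157 to 181 CPM in Vps13c-cKO mice, with no overlap and a log2 fold change of 0.30 ± 0.04 (adjusted p = 5.214e-05). Vldlr, the receptor for very-low-density lipoprotein, fell by 0.15 ± 0.04 on the log2 scale, from 604 ± 30.4 to 543 ± 17.2 CPM (adjusted p = 0.00706). Gramd1b, a sterol transporter of plasma membrane contacts, was at 60.9 ± 3.05 and 67.5 ± 3.53 CPM (log2 fold change 0.15 ± 0.04, adjusted p = 0.0329). Its call was lost without WT mouse 4 or 6 or Vps13c-cKO mouse 2, 4, 5 or 6, with adjusted p from 0.0502 to 0.0887, and without the mice with liver and atrial markers (adjusted p = 0.0508). Stard4, a sterol transfer protein gene, was at -0.22 ± 0.07 (adjusted p = 0.062), and was called without WT mouse 6 (adjusted p = 0.0314). The other 2 with an unadjusted p under 0.05, chosen after their values were seen, were Tmem97, a sterol-binding membrane protein gene, at 0.41 ± 0.15 (adjusted p = 0.0943), and Npc2, a lysosomal cholesterol carrier gene, at 0.12 ± 0.05 (adjusted p = 0.131).

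In efflux, esterification, oxysterols and the LXR response, 1 of 8 tested genes was called, beside 10.7% of all tested genes. By edgeR, 2 of the 8 had an unadjusted p under 0.05, beside 23.8% of all. Apoe was at 160, 132, 135, 151, 128 and 136 CPM in WT mice and at 203, 173, 176, 172, 179 and 177 CPM in Vps13c-cKO mice. The groups did not overlap, and the highest mouse was the one with liver markers. Its log2 fold change was 0.36 ± 0.05 (adjusted p = 0.000103), and 0.32 ± 0.05 without Vps13c-cKO mouse 1 (adjusted p = 0.000282). Abcg1, a sterol efflux transporter and LXR target, had no overlap between the groups but did not pass the adjustment, at 0.41 ± 0.14 (adjusted p = 0.0634). Soat1, which esterifies cholesterol, was at 0.19 ± 0.11 (adjusted p = 0.35), and the sterol hydroxylase Cyp27a1 at -0.10 ± 0.08 (adjusted p = 0.504). Markers of other cells moved beside these genes, while 10.7% of all tested genes were called in either direction. Of 6 fibroblast markers 3, Col1a1, Col1a2 and Lum, were called higher, while Dcn, Pdgfra and Tcf21 were not called. The summed level of the 6 was 791.6 to 903.6 CPM in WT and 898.7 to 992.9 CPM in Vps13c-cKO mice. Dcn made up most of it, at a mean of 527 CPM in WT and 552 CPM in Vps13c-cKO mice. Of 6 macrophage markers 2 were called higher, at 122 to 173.9 and 159 to 183.6 CPM summed. Of 6 endothelial markers 1 was called lower, at 676.3 to 788.4 and 685.9 to 711.9 CPM summed. Of 6 smooth muscle and pericyte markers, 5 of them tested, Rgs5 and Pdgfrb were called lower and Myh11 higher. The summed level of the 6 did not overlap, at 1106 to 1327 CPM in WT and 1032 to 1096 CPM in Vps13c-cKO mice. Most of this sum was Rgs5, at a mean of 905 CPM in WT and 836 CPM in Vps13c-cKO mice. Of 6 cardiomyocyte markers 1, Tnnt2, was called lower (adjusted p = 0.0173). The part of these cells in the results for Insig1, Apoe, Lrp1 and Vldlr was not tested. The 6 adipocyte markers, Adipoq and Plin1 among them, summed to at most 1.19 CPM in any library.

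In the non-sterol branches of the mevalonate pathway, which lead to ubiquinone, dolichol and protein prenylation, 1 of 13 genes was called. Over all tested genes, 10.7% were called. By edgeR, 2 of the 13 had an unadjusted p under 0.05, beside 23.8% of all. Pdss2, a subunit of the enzyme that builds the ubiquinone side chain, fell by 0.27 ± 0.06 on the log2 scale, from 21.3 ± 0.550 to 17.6 ± 1.18 CPM, with no overlap (adjusted p = 0.00348). Dhdds, of the dolichol branch, was at 0.13 ± 0.05 (adjusted p = 0.133), and the prenyltransferase subunits Fnta and Pggt1b were at -0.07 and -0.06, neither called.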

How the data were processed

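Ventricle RNA of 6 WT and 6 Vps13c-cKO mice was captured on poly-T beads, copied from random primers and amplified by PCR without molecular identifiers, per the labels' protocols. The authors deposited raw read counts for each gene in each mouse, not normalized, per the file headers. The tools in the submitters' processing notes are HISAT2 2.1.0, HTSeq 0.9.1 and fastp 0.22.0, on build GRCm39. Which annotation and strand option the counting used was not given in the sources used here. Symbols, exon lengths and overlaps came from GENCODE M21 (GRCm38), which named 21851 of 21959 IDs. Groups came from sample titles, and 0 columns went unused.

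The members and lists were chosen with earlier results of these data known. filterByExpr kept 12384 genes with 99.9% of the counts. Two-sided quasi-likelihood tests used edgeR 4.0.16 in R 4.3.3 with TMM and Benjamini-Hochberg adjustment; the common biological coefficient of variation was 0.0661. Correlations and the comparisons of Insig1 with other genes used log2 CPM with a prior count of 2. No replicate pair was treated as 1 library, since the chi-square per gene was 3.11 to 5.62 (genes with at least 20 summed counts). The scripts were tested on simulated data. Named were the 8 genes, Vps13c and, from each other list, every called gene and the 4 with the smallest p. Insig2 and Srebf1 were named for their roles, after their values were seen. A few genes of the lists are not reported here. Alternatives were DESeq2 1.42.0, limma-voom 3.58.1, 1 surrogate variable (sva 3.50.0), other scalings and filters, a replicate block and leaving out each mouse.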

Additional observations from a re-analysis of the deposited data

Results flagged for a closer look

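In a group of 6 mice, a mouse was singled out where its gap to the nearest other mouse, divided by the range of the group, was above Dixon's critical value of 0.625. Of 56 groups of named genes, 5 held such a mouse, and chance gives about 1 in 20. Among the 8 genes it was Hmgcs1, at 36.59 CPM in Vps13c-cKO mouse 6 against 34.42 to 35.09 CPM in the other Vps13c-cKO mice. Apoe was at 203.1 CPM in Vps13c-cKO mouse 1, the mouse with liver markers, against 171.6 to 179.0 CPM in the others. Cyp27a1 was at 16.37 CPM in Vps13c-cKO mouse 3, against 20.82 to 23.37 CPM in the others. Cyp51, the lanosterol demethylase, was at 17.18 CPM in Vps13c-cKO mouse 2, against 13.67 to 14.9 CPM in the others, and Mbtps1, a protease that cuts SREBP proteins, at 57.99 CPM in Vps13c-cKO mouse 6, against 51.8 to 53.89 CPM in the others.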

How the results depend on the processing

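Insig1 was the only one of the 8 genes called under each of the 23 alternatives run, with a log2 fold change of 0.32 to 0.42 and an adjusted p of at most 0.0149. Between 1065 and 1410 genes of all were called, against 1331, and 5 to 7 of the other pathway genes. Of 28 named results, 23 kept their direction and side of the threshold throughout. The sign of Lss turned with 1 surrogate variable (-0.0127, adjusted p = 0.981) and ranged from -0.0358 to 0.141 with 1 mouse left out. That of Idi1 turned without the mice with liver and atrial markers (-0.0842, adjusted p = 0.772) and ranged from -0.0413 to 0.0947 with 1 mouse left out. Insig1 relative to Sqle ranged from -0.0270 to 0.100 in the same way. Other values that were not called and moved by over 1.5 times with 1 mouse left out were those of Srebf2 (0.03 to 0.08), Dhcr7 (0.11 to 0.25), Fdft1 (-0.16 to -0.06), Mvk (0.12 to 0.26), Cyp51 (0.06 to 0.17), Soat1 (0.12 to 0.23), Cyp27a1 (-0.14 to -0.03), Fnta (-0.10 to -0.04) and Pggt1b (-0.07 to -0.03). The number of correlated pairs ranged from 0 to 1 with 1 mouse left out. The causes were not tested. Ube2g2 was also called with a minimum mean of 5 CPM (adjusted p = 0.0491), with sample weights (0.0491) and with robust empirical Bayes (0.0451), and Gramd1b was not called without a filter (adjusted p = 0.0517).

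Mice with the same number did not deviate together (r from -0.0396 to 0.0618), so the number is no pairing; with the replicate block 1312 genes were called, Insig1 was at 0.37 (adjusted p = 0.00743), Ube2g2 was called (adjusted p = 0.0371) and Gramd1b was not (adjusted p = 0.0669), and only mouse 6 matched its own number best. Sqle, Lss, Idi1 and Dhcr7 had the lowest counts of the tested members and standard errors of 0.13 to 0.17, and also a biological coefficient of variation above the common one, 0.0986 for Sqle to 0.153 for Lss. The biological coefficient of variation of Insig1, 0.0874, was also above the common one, while those of Hmgcs1 (0.0420) and Srebf2 (0.0557) were below it. The counts left Fdps untested.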
